A study of Mus musculus with 10 samples.

Results

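Neurotrophins and GDNF family ligands are secreted proteins that neurons use for survival, axon growth and synapse formation. Neurotrophins bind the Trk receptor tyrosine kinases, TrkB (Ntrk2) for BDNF and NT-4 and TrkC (Ntrk3) for NT-3, and all of them also bind the p75 receptor (Ngfr), which belongs to the tumour necrosis factor receptor family. GDNF family ligands first bind a lipid-anchored co-receptor, GFRα1 (Gfra1) for GDNF or GFRα2 (Gfra2) for neurturin, and the pair then activates the receptor tyrosine kinase Ret. In the retina, BDNF acting through TrkB is best known for keeping injured ganglion cells alive and for shaping their dendrites and axon arbors. The account below covers 9 genes of these pathways, chosen by symbol: the receptors Ntrk2, Ntrk3, Ngfr, Ret, Gfra1 and Gfra2 and the ligands Bdnf, Ntf3 and Gdnf. All 9 were found among the 23258 gene symbols of the table, each on 1 line.

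RNA sequencing was done on retinal ganglion cells of C57BL/6 mice at postnatal day 6, sorted by green fluorescence, with RNA of about 1000 cells per sample. The 2 groups were 5 libraries from Satb1-/- mice and 5 from wild-type mice, taken from different litters. Mice of both groups carried the Hb9-GFP reporter, which marks a subset of direction-selective ganglion cells. The sort was for cells with the reporter in both groups, but it did not keep out all RNA of other cells, as given below. The labels name neither a Cre driver nor the deleted part of Satb1, a gene for a chromatin organizer. Levels are given as TPM, which corrects for the length of a transcript and for the total of a library; such values can be set side by side between genes. The depth of the libraries is unknown, because TPM keeps no read counts.

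Facts of the whole set bear on every value below. Knockout 4, knockout 5 and wild-type 5 stood apart from the other 7 libraries on the first principal component, which held 32.9% of the variance. Satb1 itself had 24.1 to 170.4 TPM in knockout libraries and 38.5 to 414 TPM in wild-type libraries (exact permutation p = 0.135, two-sided), so the table checks the genotype only weakly. Of 14 general ganglion cell markers, all 14 passed the filter on low values, and their sum was 14721 to 102626 TPM in knockout and 16192 to 32248 TPM in wild-type libraries. The largest part of this sum in every library was the neurofilament gene Nefl, at 6567 to 94381 TPM in knockout and 6422 to 19151 TPM in wild-type. Microglial markers (10 genes) summed to 74.2 to 2992 TPM in knockout and 4.14 to 2278 TPM in wild-type, and rod markers (10 genes) to 1.21 to 466 TPM in knockout and 3.89 to 488 TPM in wild-type, so RNA of other cells was present to varied degrees in both genotypes.

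The sorted samples held transcripts of 4 receptors in every library and little of the 3 ligands. Ntrk2, Ntrk3, Ret and Gfra2 were above 4 TPM in all 10 libraries and together made up 97.7% to 98.5% of the summed TPM of the 9 genes in knockout libraries. In wild-type libraries the same 4 genes made up 71.9% to 96.3% of that sum, the lowest share being in wild-type 4, where Ngfr was high. Gfra1, Ntf3 and Gdnf were at or near 0 in nearly all libraries. The plot of levels by gene shows this split between 4 expressed receptors and the rest.

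**Figure D1:**
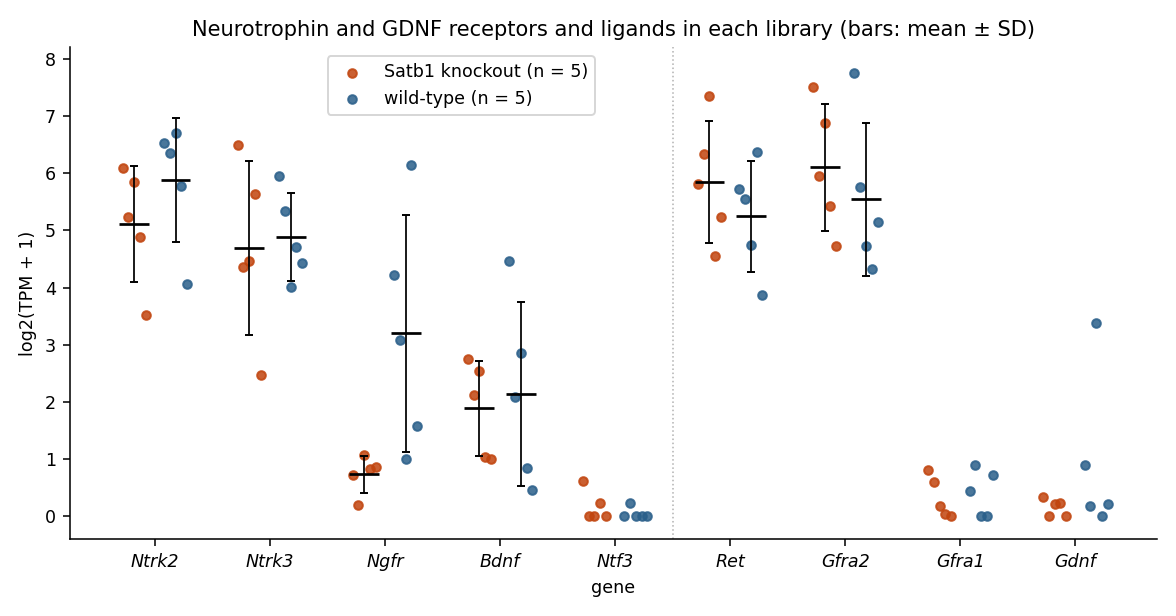
Levels of the 9 genes as log2(TPM + 1) (vertical axis) in the 5 Satb1 knockout libraries (left of each pair) and the 5 wild-type libraries (right), with mean and SD as black bars for the 6 genes with no value listed at 0. Neurotrophin receptors and ligands stand left of the dotted line, the Ret complex and Gdnf right of it; Ngfr has knockout values of 0.146 to 1.10 TPM and wild-type values of up to 69.5 TPM.

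Ntrk2 encodes TrkB, the BDNF receptor (chromosome 13, 58806569 to 59133970, plus strand, mm10). It had 67.1, 36.5, 56.8, 28.7 and 10.5 TPM in knockout 1 to 5, and 91.8, 80.7, 103, 53.9 and 15.6 TPM in wild-type 1 to 5. The genotypes overlapped, and the lowest value of each was in a library apart on the first component. The means were 39.9 ± 22.5 TPM in knockout and 69.0 ± 34.9 TPM in wild-type (SD, n = 5 each). Ranked by TPM among all symbols of the same library, counted from the lowest, its median percentile was 84.7 in knockout and 91.2 in wild-type. The GENCODE M21 annotation lists 7 protein-coding transcripts of Ntrk2 with coding lengths of 1398 to 2463 bases. The short forms of TrkB are known to lack the kinase domain, and a value for the whole gene does not tell them apart from the full receptor.

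Ntrk3 encodes TrkC, the NT-3 receptor (chromosome 7, 78175959 to 78738012, minus strand, mm10). It had 89.1, 19.6, 21.0, 48.9 and 4.55 TPM in knockout 1 to 5, and 60.6, 39.4, 15.2, 25.2 and 20.5 TPM in wild-type 1 to 5. Knockout libraries held both the highest and the lowest value. The means were 36.6 ± 33.4 TPM in knockout and 32.2 ± 18.3 TPM in wild-type (SD, n = 5 each). Both Trk genes overlap annotated transcripts on the opposite strand, 3 for Ntrk2 and 2 for Ntrk3, and the use of strand in counting is not given in the sources used here.

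Ngfr encodes p75, which binds all neurotrophins and, with sortilin, their unprocessed forms (chromosome 11, 95568818 to 95587735, minus strand, mm10). It had 0.648, 0.146, 1.10, 0.780 and 0.818 TPM in knockout 1 to 5, and 17.6, 7.44, 1.0, 69.5 and 2.0 TPM in wild-type 1 to 5. Of the 5 knockout libraries, 4 were below every wild-type library. The exception was knockout 3, which stood just above wild-type 3. Wild-type 4, the library with the highest Ngfr, also stood apart from all others on the second principal component, which held 13% of the variance.

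Bdnf encodes the main ligand of TrkB (chromosome 2, 109674700 to 109727007, plus strand, mm10). It had 5.75, 3.37, 4.85, 1.05 and 0.999 TPM in knockout 1 to 5, and 21.0, 3.25, 6.26, 0.791 and 0.377 TPM in wild-type 1 to 5. The genotypes overlapped fully, the knockout values lying inside the wild-type range. The 3 libraries apart on the first component had 0.377 to 1.05 TPM, and the other 7 had 0.791 to 21.0 TPM. Ntf3, which encodes NT-3, the ligand of TrkC (chromosome 6, 126101412 to 126166910, minus strand), had 0.542, 0, 0, 0.180 and 0 TPM in knockout 1 to 5, and 0, 0.172, 0, 0 and 0 TPM in wild-type 1 to 5. It was thus listed at 0 in 7 of 10 libraries, and an exact 0 in such a table can be a failed estimate.

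Ret encodes the signalling receptor of the GDNF family (chromosome 6, 118151745 to 118197718, minus strand, mm10). It had 55.0, 79.6, 161, 22.3 and 36.7 TPM in knockout 1 to 5, and 52.0, 45.7, 25.7, 81.4 and 13.6 TPM in wild-type 1 to 5. The highest value was in knockout 3 and the lowest in wild-type 5, with the rest of the libraries mixed. The means were 71.0 ± 54.8 TPM in knockout and 43.7 ± 26.1 TPM in wild-type (SD, n = 5 each).

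Gfra2 encodes the co-receptor that presents neurturin to Ret (chromosome 14, 70890120 to 70979838, plus strand, mm10). It had 181, 60.7, 117, 42.1 and 25.6 TPM in knockout 1 to 5, and 215, 52.9, 25.4, 19.1 and 34.4 TPM in wild-type 1 to 5. Wild-type 1 had the highest value of all, while the other 4 wild-type libraries lay below knockout 1, 2 and 3. The means were 85.4 ± 63.8 TPM in knockout and 69.3 ± 82.2 TPM in wild-type (SD, n = 5 each), so the spread in wild-type was as large as the mean.

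Gfra1, the co-receptor for GDNF, was low beside Gfra2 (chromosome 19, 58235604 to 58455909, minus strand, mm10). It had 0.747, 0.513, 0.139, 0.0310 and 0 TPM in knockout 1 to 5, and 0.365, 0.866, 0, 0 and 0.656 TPM in wild-type 1 to 5. No library reached 1 TPM. Gdnf, the ligand of that co-receptor (chromosome 15, 7810846 to 7837575, plus strand), had 0.267, 0, 0.166, 0.176 and 0 TPM in knockout 1 to 5, and 0.875, 0.136, 9.37, 0 and 0.163 TPM in wild-type 1 to 5. A single library, wild-type 3, was above 1 TPM.

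Ordered by mean log2(TPM + 1) over the 10 libraries, the genes ran Gfra2 (5.82), Ret (5.55), Ntrk2 (5.50), Ntrk3 (4.79), Bdnf (2.02), Ngfr (1.97), Gdnf (0.55), Gfra1 (0.37) and Ntf3 (0.11). Most neighbours in this order did not differ beyond their spread. Gfra2 exceeded Ret in 5 of 10 libraries, with a mean difference of 0.27 ± 1.22 (SD) on the log2 scale. Ret exceeded Ntrk2 in 4 of 10 libraries (0.05 ± 1.16) and Ntrk2 exceeded Ntrk3 in 7 of 10 (0.71 ± 1.02). In this order over all libraries, the one step larger than its SD was from Ntrk3 to Bdnf, at 2.77 ± 1.25 and in the same direction in 10 of 10 libraries. In knockout libraries Bdnf also stood above Ngfr by more than the SD (1.16 ± 0.92, 5 of 5). In wild-type libraries Ngfr had the higher mean of these 2, by 1.06 ± 2.66, and was higher in 3 of 5. At the top the genotypes had different orders: Gfra2 (6.10), Ret (5.85) and Ntrk2 (5.12) in knockout, and Ntrk2 (5.88), Gfra2 (5.54) and Ret (5.25) in wild-type. At the bottom in wild-type, Gfra1 stood above Ntf3 by 0.37 ± 0.35 and was higher in 3 of 5 libraries. The order was made from the same values, so it was described and not tested.

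Ratios between genes of 1 library do not depend on a factor that scales the whole library, except where a level is low beside the added 1. Gfra1 was below 1 TPM in every library. Its ratios therefore mostly follow the levels of Gfra2 and Ret and can move with such a factor. All ratios are given as descriptions without a test. Gfra1 was below Gfra2 in all 10 libraries, with a log2 ratio of (TPM + 1) of -5.77 ± 0.89 in knockout and -5.13 ± 1.24 in wild-type (SD, n = 5 each). Ret exceeded Gfra1 in all 10 libraries, by 5.53 ± 1.01 in knockout and 4.83 ± 1.17 in wild-type. Ntrk2 exceeded Ntrk3 in 3 of 5 knockout and 4 of 5 wild-type libraries, with mean log2 ratios of 0.43 ± 0.95 in knockout and 0.998 ± 1.11 in wild-type. The following 3 ratios were chosen after the values had been seen. Gfra2 exceeded Ntrk2 in 5 of 5 knockout libraries (log2 ratio 0.54 to 1.42) and in 2 of 5 wild-type libraries (-1.98 to 1.22). Ret exceeded Ntrk2 in 3 of 5 knockout and 1 of 5 wild-type libraries, with mean log2 ratios of 0.74 ± 0.99 in knockout and -0.64 ± 0.94 in wild-type. Ret and Gfra2, which act in 1 receptor complex, did not keep a fixed ratio: it ran from -1.70 to 0.50 in knockout and from -2.03 to 2.03 in wild-type.

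**Figure D2:**
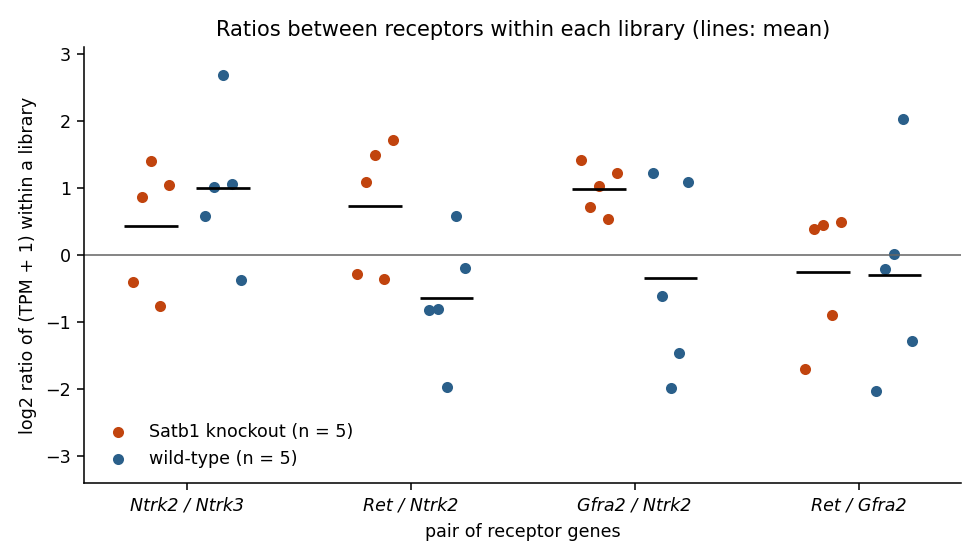
Log2 ratio of (TPM + 1) between pairs of receptor genes within each library (vertical axis), for the 5 Satb1 knockout libraries (left of each pair) and the 5 wild-type libraries (right); black lines are means. Gfra2 over Ntrk2 lies between 0.54 and 1.42 in all knockout libraries and between -1.98 and 1.22 in wild-type libraries.

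The comparison of the genotypes asked which of these transcripts differ when Satb1 is missing. Of the 9 genes, 6 had at least 1 TPM in at least 5 libraries and were tested with 11744 genes in all, while Ntf3, Gdnf and Gfra1 were not. At a limma Benjamini-Hochberg adjusted p under 0.05, 0 of the 6 were called, where 0% of all tested genes were called. At an unadjusted limma p under 0.05, 1 of the 6 was counted, Ngfr, against 3.31% of all tested genes (2.57% with a lower estimate in knockout, as Ngfr had). By the exact permutation test of single genes, 1 of the 9 had a p under 0.05, again Ngfr, against 3.49% of all tested genes. Of the 6, 4 had estimates below 0 and 2 above, with a median log2 difference of -0.22, beside -0.31 for all tested genes, of which 67.4% were below 0. In these bulk samples, fewer cells of a type and less RNA per cell cannot be told apart.

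Ngfr differed most, with a log2 difference on the TPM + 1 scale of -2.47 (SE 0.85, 95% interval -4.24 to -0.70; n = 5 each). Its exact permutation p was 0.0159 (two-sided; the smallest possible is 0.00794), and its limma adjusted p over all genes was 0.992, so it did not pass across the transcriptome. Its mean was 0.698 ± 0.350 TPM in knockout and 19.5 ± 28.7 TPM in wild-type (SD, n = 5 each). Ngfr was in the test through the group in which it was high: 4 wild-type libraries and 1 knockout library reached 1 TPM. Without wild-type 4 the log2 difference was -1.73 (exact permutation p = 0.0317). Among all tested genes, 1.11% had an estimate below -2.

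The sum of a list of vessel cell markers was also highest in some of the wild-type libraries. Pericytes, which wrap retinal capillaries, are among the cells that can express p75. The endothelial and pericyte list (10 genes) summed to 0.277 to 6.88 TPM in knockout and 0.650 to 72.6 TPM in wild-type libraries. Of these 10 genes 9 missed the filter, and the other was the pericyte marker Rgs5, singled out after its values had been seen. Rgs5 passed the filter through the group in which it was high, with 4 wild-type libraries and 1 knockout library at 1 TPM or more. Rgs5 had 0.103, 1.59, 0.957, 0.0326 and 0.540 TPM in knockout 1 to 5, and 38.6, 42.9, 0, 23.8 and 3.18 TPM in wild-type 1 to 5. The sum of the list was 72.6, 50.6 and 24.8 TPM in wild-type 1, 2 and 4, with Rgs5 the larger part. The 3 wild-type libraries with the most Ngfr (1, 2 and 4) were also those with the most Rgs5, though not in the same order. In wild-type 4, the library with the most Ngfr, Rgs5 held 23.8 of the 24.8 TPM of the list. The pericyte marker Pdgfrb was listed at 0 in all 5 knockout libraries and at 4.64, 2.85, 0, 0.282 and 0 TPM in wild-type 1 to 5. Mean TPM in knockout and wild-type was 0.0365 and 0.777 for Cspg4, and 0 and 0.0361 for Acta2. For Kcnj8, listed at 0 in 8 of 10 libraries, it was 0.205 and 2.44. Endothelial genes of the list were low and mixed. Mean TPM in knockout and wild-type was 0.683 and 0.660 for Kdr, 0.0227 and 0.0161 for Cdh5, and 0.853 and 2.46 for Pecam1. It was 0 and 0.845 for Cldn5, and 0 and 0.0230 for Tie1. The astrocyte list (6 genes) summed to 17.2 to 136 TPM in knockout and 3.18 to 99.0 TPM in wild-type. Most of it was Aldoc, at 15.7 to 134 TPM in knockout and 2.59 to 98.1 TPM in wild-type, and the other 5 genes missed the filter. The Muller glia list (10 genes) summed to 246 to 7882 TPM in knockout and 405 to 682 TPM in wild-type. The highest of these sums, in knockout 5, was mostly Apoe (5651 TPM) and Vim (2118 TPM). Rlbp1, Aqp4 and Kcnj10 of this list missed the filter, with at most 2.28, 1.33 and 0.332 TPM in any library. The part of such cells in the Ngfr difference was not tested.

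**Figure D3:**
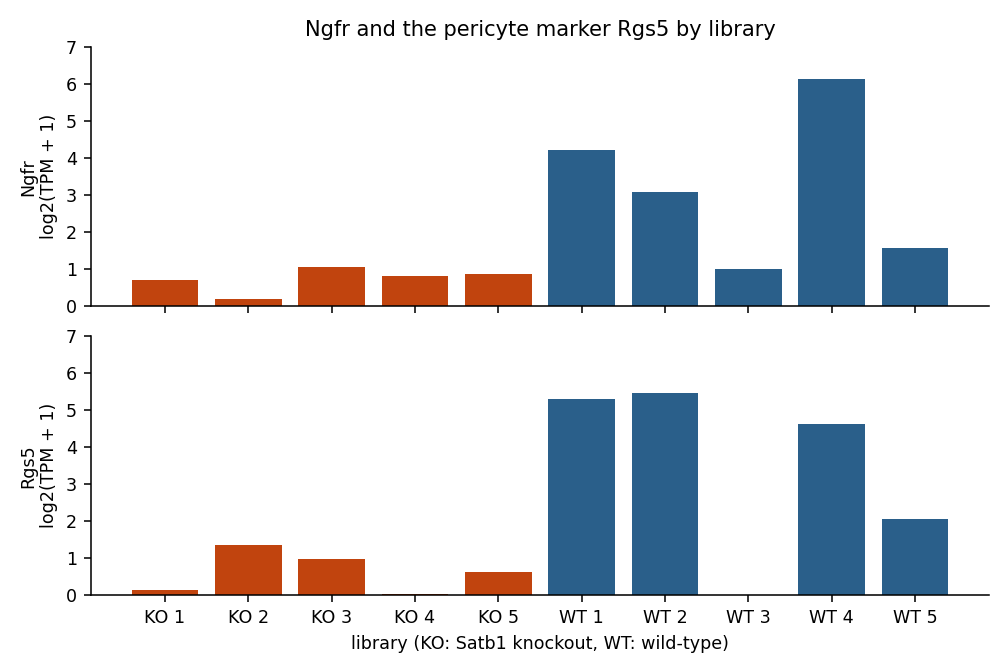
Ngfr (top) and the pericyte marker Rgs5 (bottom) as log2(TPM + 1) in each library, with the 5 Satb1 knockout libraries left and the 5 wild-type libraries right. Wild-type 1, 2 and 4 are highest for both genes, and wild-type 3 has 1.0 TPM of Ngfr and 0 TPM of Rgs5.

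For the other 5 tested genes the difference between genotypes was smaller than its interval could separate from 0. The log2 difference was -0.77 for Ntrk2 (95% interval -2.21 to 0.67; exact permutation p = 0.286) and -0.20 for Ntrk3 (-1.78 to 1.38; p = 0.825 by the exact test). It was -0.25 for Bdnf (-1.91 to 1.42; exact p = 0.817). On the Ret side it was 0.61 for Ret (-0.82 to 2.03; exact p = 0.381) and 0.56 for Gfra2 (-0.96 to 2.08; exact p = 0.476). These intervals reach beyond a log2 difference of 1 in 1 direction or both, so 2-fold changes of these genes are not excluded with 5 libraries a group. A p above the threshold does not show that the genotypes had equal levels. The limma adjusted p was 0.992 for each of the 5. The untested genes had exact permutation p values of 0.444 for Ntf3, 0.317 for Gdnf and 0.754 for Gfra1.

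**Figure D4:**
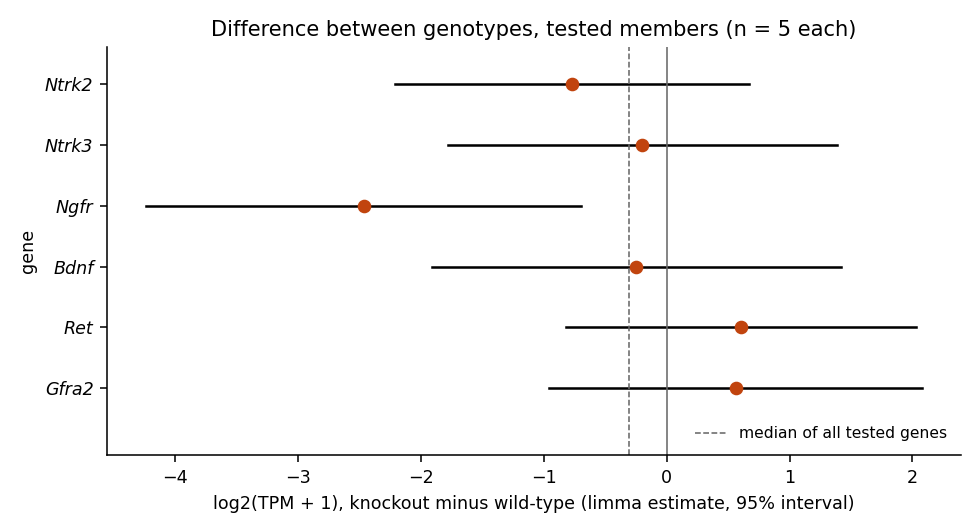
Log2(TPM + 1) in knockout minus wild-type (horizontal axis) for the 6 tested genes, as limma estimates with 95% intervals (n = 5 each). The interval of Ngfr (-4.24 to -0.70) lies below 0, the other 5 include 0, and the dashed line marks the median of all tested genes at -0.31.

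The sign of the small differences depended on scaling. After median centring of the libraries the median difference of all genes was 0.07 in place of -0.31, and after quantile normalization -0.04. Among all genes at an unadjusted limma p under 0.05, 302 of 389 were lower in knockout on the deposited scale, 149 of 383 after median centring and 212 of 401 after quantile normalization. Relative to the median of all genes, the difference was -2.16 for Ngfr, -0.46 for Ntrk2, 0.11 for Ntrk3, 0.06 for Bdnf, 0.87 for Gfra2 and 0.91 for Ret. Ntrk3 and Bdnf were above 0 after either scaling (0.18 and 0.13 after median centring, 0.13 and 0.10 after quantile normalization), and the other 4 kept their sign. Ntrk2 had an exact permutation p of 0.0476 without wild-type 5, its lowest wild-type library, at a log2 difference of -1.22.

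Other genes whose levels followed those of a receptor over the 10 libraries were looked for where the receptor had at least 5 TPM in every library, which held for Ntrk2, Gfra2 and Ret. The values are descriptions over libraries that share cell mixture and library quality. They were picked as the highest among the 11744 tested genes, after predicted genes, clones and small RNAs had been left out. Closest to Ntrk2 were Prkaa2 (Pearson r = 0.977, Spearman correlation = 0.952), which encodes a catalytic subunit of the energy sensor AMP kinase, the tankyrase gene Tnks (0.971 and 0.927) and Tmed7 (0.970 and 0.927), a gene of the secretory pathway. Closest to Gfra2 were the carbonic anhydrase gene Car2 (0.946 and 0.855), Net1 (0.933 and 0.976), which encodes a guanine nucleotide exchange factor, and Gmcl1 (0.916 and 0.939). Car2 was also on the Muller glia list used above. Closest to Ret were the kinesin gene Kif21b (0.902 and 0.830), the lipid kinase gene Pip4k2a (0.897 and 0.855) and the cytochrome c gene Cycs (0.896 and 0.818). The 3 libraries apart on the first component had the 3 lowest Ntrk2 levels (10.5 to 28.7 TPM, against 36.5 to 103 TPM in the other 7), so the likeness to Ntrk2 includes that split.

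The remaining ligands and receptors of both families were rare. Of 10 symbols listed, 9 were in the table and 1 was tested. Pspn, which encodes persephin, the ligand of GFRα4, was listed at 0 in all 10 libraries. Nrtn, which encodes neurturin, the ligand of GFRα2, was at 65.2 TPM in wild-type 5 and listed at 0 elsewhere. Ntf5 (NT-4) was at 3.39 TPM in wild-type 4 and listed at 0 elsewhere. Gfra4, the co-receptor for persephin and the tested gene of this list, was at 0.932, 50.7, 9.04, 0 and 0 TPM in knockout 1 to 5, and 6.38, 3.57, 3.81, 0 and 0 TPM in wild-type 1 to 5. Its log2 difference was 0.53 (SE 0.99; limma adjusted p = 0.992) and rested on knockout 2, without which it was -0.40.

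Beyond the ligands and receptors, 86 genes of 6 lists of pathway genes were tested. At a limma adjusted p under 0.05, 0 of them were called (0% of all tested genes), and 1, Scg2, had an unadjusted limma p under 0.05 (3.31% of all tested genes). The lists, and Scg2 among their genes, were chosen with earlier results of these data known. By the exact permutation test 5 of the 86 had an unadjusted p under 0.05, against 3.49% of all tested genes. The counts of higher and lower estimates moved with scaling, as for all tested genes, of which 67.4% were below 0 with a median of -0.31. Among adapters that dock on Trk and Ret receptors, 20 of 22 were tested, with 6 higher, 14 lower and a median of -0.33 (10 higher and 10 lower after median centring). The tyrosine phosphatase gene Ptpn11 (SHP2), which relays receptor signals to Ras, stood at 9.70 ± 4.06 TPM in knockout and 21.8 ± 7.08 TPM in wild-type (log2 difference -1.14, SE 0.68; exact permutation p = 0.0159). Rapgef1, an exchange factor for Rap1, stood at 23.1 ± 10.5 TPM in knockout and 63.9 ± 62.0 TPM in wild-type (-1.16, SE 0.67; exact p = 0.0476). In the MAP kinase and PI3 kinase cascade, all 27 genes found in the table were tested, with 4 higher, 23 lower and a median of -0.43 (13 higher and 14 lower after median centring). The survival kinase gene Akt1 stood at 48.3 ± 23.7 TPM in knockout and 109 ± 42.9 TPM in wild-type (-1.16, SE 0.58; exact p = 0.0238), and Rps6ka2, a ribosomal S6 kinase gene, at 30.2 ± 26.6 TPM in knockout and 58.3 ± 15.6 TPM in wild-type (-1.18, SE 0.63; exact p = 0.0397). Each of these 4 genes overlapped between genotypes (SD, n = 5 each; limma adjusted p = 0.992). After median centring their differences were smaller: -0.77 for Ptpn11, -0.78 for Rapgef1, -0.78 for Akt1 and -0.80 for Rps6ka2 (unadjusted limma p from 0.136 to 0.226).

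Partners and effectors of p75 summed to 1682 to 8133 TPM in knockout and 2391 to 3073 TPM in wild-type libraries. All 17 found in the table were tested, with 5 higher, 12 lower and a median of -0.42 (8 higher and 9 lower after median centring). The necdin gene Ndn, whose product binds p75, ranged from 159.6 to 5120 TPM in knockout and 198 to 563 TPM in wild-type (log2 difference 1.03, SE 0.72). Zfp110, a zinc finger protein that binds p75, stood at 7.29 ± 11.0 TPM in knockout and 11.0 ± 7.05 TPM in wild-type (-1.13, SE 0.85). The adhesion molecule gene Ncam1, which can serve GDNF without Ret, was abundant, at 486 ± 226 TPM in knockout and 502 ± 230 TPM in wild-type (-0.04, SE 0.57). The heparan sulfate proteoglycan gene Sdc3, another GDNF binding protein, stood at 175 ± 110 TPM in knockout and 212 ± 113 TPM in wild-type (-0.31, SE 0.57; SD, n = 5 each).

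Among genes that process or package neurotrophin precursors, 9 of 13 were tested, with 4 higher, 5 lower and a median of -0.12 (5 higher and 4 lower after median centring). Scg2, which encodes the secretory granule protein secretogranin II (chromosome 1, 79434669 to 79440120, minus strand), was the gene with an unadjusted limma p under 0.05. It had 189.2, 151, 100.4, 173 and 64.0 TPM in knockout 1 to 5, and 848, 468, 630, 189 and 274 TPM in wild-type 1 to 5. Only wild-type 4 fell within the knockout range, and its value was just below that of knockout 1. The log2 difference was -1.72 (SE 0.57; exact permutation p = 0.0159, limma adjusted p = 0.992). The convertase gene Furin, whose product cleaves neurotrophin precursors, stood at 8.10 ± 8.32 TPM in knockout and 22.5 ± 19.8 TPM in wild-type (-1.42, SE 0.86; SD, n = 5 each). Among 18 transcripts known to be induced by Trk or Ret signalling, 11 were tested, with 5 higher, 6 lower and a median of -0.05 (7 higher and 4 lower after median centring). Of these 11, Spry2 and Spry4, which encode feedback inhibitors of receptor tyrosine kinases, had the smallest limma p. Spry2 was in the test through the group in which it was high: 4 wild-type libraries and 1 knockout library reached 1 TPM. Spry4 stood at 4.65 ± 3.96 TPM in knockout and 19.9 ± 26.9 TPM in wild-type (-1.47, SE 0.91), and Spry2 at 0 to 2.42 TPM in knockout and 0.320 to 5.02 TPM in wild-type (-1.09, SE 0.61; SD, n = 5 each; limma adjusted p = 0.992 for both).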

How the data were processed

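The authors deposited one value per gene and library, log10(TPM + 1), for 23746 entries in 10 libraries. That the base is 10 and the offset 1 follows from the values: each library, back-transformed, sums to 1000000 TPM. The submitters' processing notes name TopHat2 2.0.10, Cufflinks and mm10; annotation, strand and filters are not stated. The cDNA was amplified, per the labels' protocols.

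Entries with a number for a symbol (26, holding 0.0438% to 0.198% of a library's TPM) were left out, and 240 repeated symbols were summed in TPM. A gene entered the test when 5 or more libraries had 1 TPM or more. The test was limma 3.58.1 (R 4.3.3) on log2(TPM + 1) with genotype alone in the model and a variance trend, adjusted by Benjamini-Hochberg over all tested genes at 0.05. Differences on this scale understate those of low genes. Single genes also had an exact permutation test (two-sided, 252 divisions). The fit was also run on simulated data with noise drawn independently for each gene. That run lacked the structure that these libraries share, so it cannot show how the test behaves with it. Samples came from different litters, and p-values measure the spread between these samples. Positions are those of GENCODE M21.

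Genes, lists and tests were chosen with earlier results of these data known. Besides the 9 genes, the text names the 2 genes of smallest p of each list and the 3 genes most like each receptor that had at least 5 TPM throughout. Most other genes of the lists are given only in counts or sums, and some are not reported here. Alternatives covered pseudocount (0.1, 5), filter, scaling, replicate block, library weights, trend and libraries left out.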

Additional observations from a re-analysis of the deposited data

Results flagged for a closer look

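In each genotype the highest and the lowest of the 5 libraries were compared with the rest for all 9 genes, 18 groups in all, by the gap to the nearest library as a share of the range of log2(TPM + 1). Another scale can mark other groups. Chance marks about 1 in 20 such groups. In 2 groups the highest library stood apart. Gdnf was at 9.37 TPM in wild-type 3, where the other 4 wild-type libraries had 0 to 0.875 TPM. Ntf3 was at 0.172 TPM in wild-type 2, where the other 4 wild-type libraries were listed at 0. With 4 libraries at 0 any value above 0 would be marked, so the chance share does not apply to Ntf3.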

How the results depend on the processing

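Of the genes tested (6 in most settings, 4 with a filter of 5 TPM, all 9 only without a filter), 0 were called by limma in each of the 20 alternatives. The count of all genes called was 0 as reported, 1 with a filter of 5 TPM, 3 with library weights and 1 without the mean-variance trend, and 0 to 1 with single libraries left out; Rpp25, Cartpt and Scarna3b were the genes concerned. With the replicate block it was 0 (830 genes at an unadjusted p under 0.05, against 389). Same-numbered libraries correlated in their deviations at -0.032 to 0.364, over 0.1 in 3 of 5 pairs, and 3 of 5 knockout libraries correlated best with their own number, a hint from the data. The labels do not tie a number to a litter or batch, so the libraries were taken to share only a number. With the block the SE of Ntrk2 was 0.398 in place of 0.691 (limma adjusted p = 0.696). The count of the 9 genes with an exact permutation p under 0.05 was 1 to 2 with single libraries left out (2 without wild-type 5, Ngfr and Ntrk2) and 0 without knockout 4, knockout 5 and wild-type 5, where Ngfr had a difference of -2.95 and p = 0.114, and where 3 against 4 libraries cannot go below 0.0571. Ngfr was negative in the 19 alternatives that tested it; the filter of 5 TPM left it out (-3.37 to -1.44, limma adjusted p 0.651 to 1).

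Signs changed for small differences, and the cause was not tested. After median centring the value was 0.18 for Ntrk3, 0.13 for Bdnf, 0.063 for Sdc3 and 0.34 for Ncam1, and after quantile normalization 0.13 for Ntrk3 and 0.10 for Bdnf. Without those 3 libraries it was 0.10 for Ntrk3 and 0.19 for Gfra1. With single libraries left out, Ntrk3 ranged from -0.65 to 0.35, Bdnf from -0.67 to 0.33, Gfra1 from -0.21 to 0.033, Gfra4 from -0.40 to 1.02 and Ncam1 from -0.39 to 0.27. Depth is unknown, so values near 0 have no counting limit.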
